A study of Sus scrofa with 16 samples.

Results

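The nuclear receptor genes of the pig were followed through the accessible chromatin regions of 6 newborn tissues and 3 liver ages. The 41 members were given by name, and the peaks that overlap the promoter or the body of each were collected from all 8 peak lists, beside 19560 protein-coding genes (PCGs). Promoters were windows around each transcription start of the RefSeq annotation of Sscrofa11.1, with 2.2 kb taken before the start and 500 bp after it, and every start of a gene was used. RefSeq lists 39 members as protein-coding. It lists NR4A1 as a pseudogene without a transcript, so the 5′ end of its gene record was taken as the start, and RARG as a long non-coding RNA. Accessibility was measured by ATAC-seq, in which a transposase cuts open DNA, on nuclei from frozen tissue of female crossbred domestic pigs. Spleen, lung, kidney, heart, liver and skeletal muscle came from pigs labelled as taken on the day of birth (day 0). The study describes these pigs as newborn and a day old. Liver alone also came from pigs of 28 days (suckling) and 180 days (adult). No group carried a treatment or an engineered allele. Each of the 8 groups had 2 libraries, which the study's methods trace to a pair of full sisters at each age, so animals within an age are closely related and the newborn tissues share the same pigs.

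Nuclear receptors are transcription factors that bind DNA through a zinc finger domain and, in many cases, change their activity when a small lipid-soluble ligand enters a second domain. Steroid receptors bind as homodimers, whereas the receptors for thyroid hormone, retinoic acid, vitamin D, fatty acids, bile acids, oxysterols and xenobiotics bind beside a retinoid X receptor (RXR). In liver they govern bile acid, lipid, glucose and drug metabolism, and the orphan members, for which no hormone is established, act on metabolism, the circadian clock and development.

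The 2 libraries of a group had been merged by the authors into 1 list of 57126 to 141689 peaks, so a count over a list has no replicate error, and no test between groups was made. For each peak the lists give the −log10 p of replicate 1 and of replicate 2, and an irreproducible discovery rate (IDR), which is low where both replicates rank a peak alike. The −log10 p is not on a common scale across libraries (its median was 24.8 in replicate 1 and 8.66 in replicate 2 of newborn liver), so peaks were compared through their percentile, the percent of peaks of the same list with a lower value in that replicate. The strongest promoter peak of a gene can lie at different places in different lists. The shares of peaks with an IDR of 0.05 or lower ran from 19.2% in newborn liver to 50.4% in adult liver. A missing peak means only that none was called there, which is no measurement of closed chromatin. Marker genes of the labelled tissue had a promoter peak in 7 of 7 cases in heart, 6 of 7 in kidney, 7 of 8 in lung, 8 of 8 in muscle, 8 of 8 in spleen and 7 of 8, 8 of 8 and 8 of 8 in liver at day 0, 28 and 180. In newborn liver the missing marker was ALB, the gene of albumin. Markers were also called outside their tissue. The highest counts in another newborn tissue were 5 of 7 for heart (kidney), 2 of 7 for kidney and 2 of 8 for lung. They were 4 of 8 for muscle (in kidney), 4 of 8 for spleen (in liver) and 2 of 8 for liver. Over all PCGs, the share with a promoter peak ran from 61.5% to 75.2% in newborn tissues. Some markers are genes that the study names for tissue-specific promoters in these data, so the check was partly fixed in advance.

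Most nuclear receptor genes had an accessible promoter in most tissues. Of the 41 genes, 36 had a promoter peak in heart (68.0% of all PCGs did), 37 in kidney (75.2%), 39 in newborn liver (73.7%), 37 in lung (70.6%), 32 in muscle (61.5%) and 33 in spleen (68.9%). Newborn liver lacked a call only at ESRRG and NR2E3. Muscle had the fewest members called and the shortest list, and with equal numbers of top peaks spleen had the fewest (29, against 32 in muscle). In 28 genes the promoter was called in all 6 newborn tissues (57.7% of PCGs), in 12 it was called in 1 to 5 (24.1%), and in 1 it was called in none (18.2%). NR2E3, a receptor known from photoreceptors of the retina, was the gene with none, and it had no promoter peak at the later liver ages either. The map of promoter peaks by gene and list shows each shortfall. In some groups fewer than all tissues were called in most of the genes. These groups are the fatty acid receptors (PPARs), the receptors of bile acids, oxysterols and xenobiotics with NR5A2 and NR0B2, and the estrogen-related receptors.

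**Figure D1:**
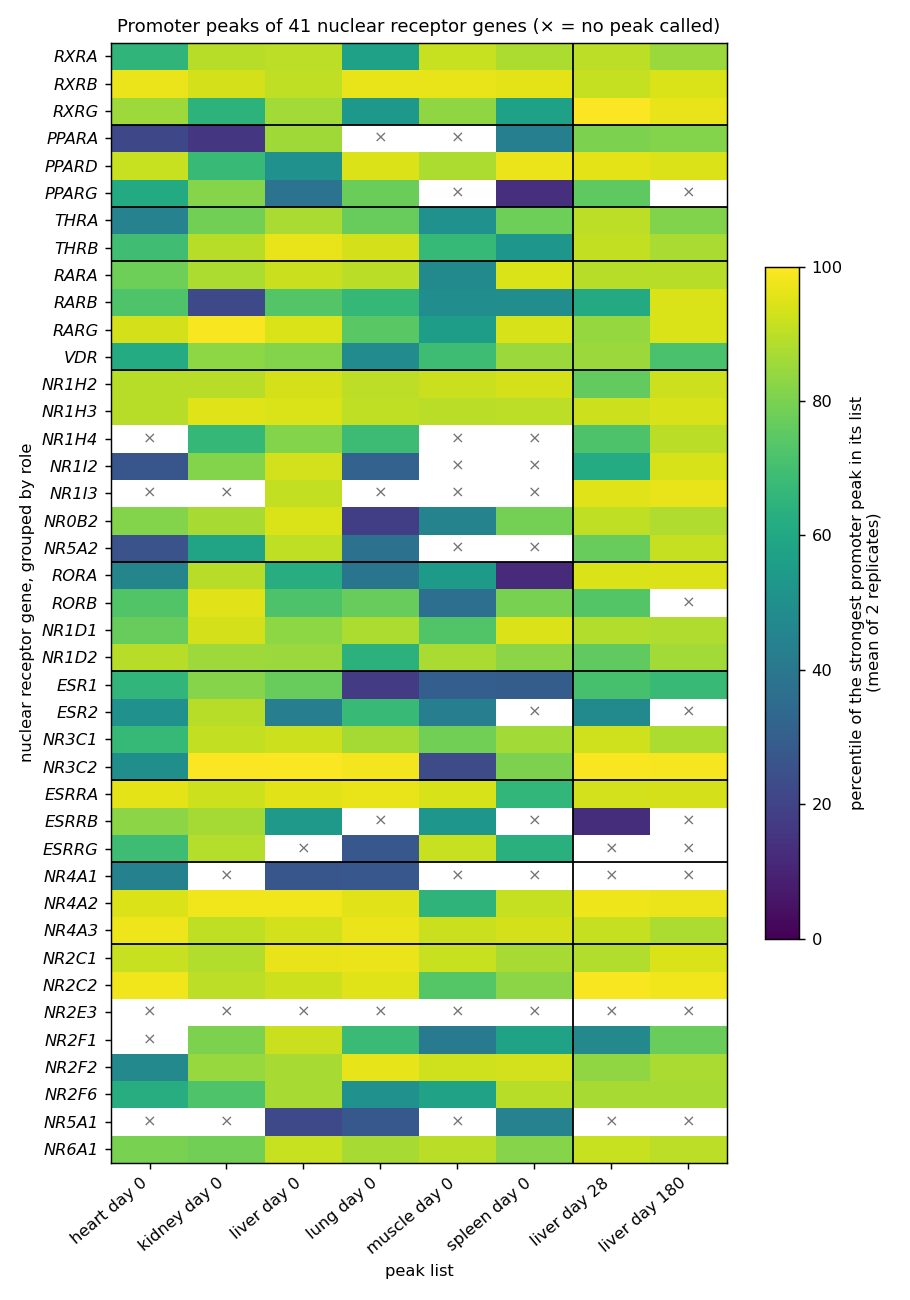
Rows are the 41 nuclear receptor genes grouped by role, columns the 8 peak lists, and colour gives the percentile (0 to 100, mean of both replicates) of the strongest promoter peak within its list, with a cross where no promoter peak was called. Most rows are filled in all columns, NR1I3 is filled only in the 3 liver columns, ESRRG is empty only there, and NR2E3 is empty throughout.

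The classes between the extremes held 1 gene with a promoter peak in 1 tissue (NR1I3), 3 genes with 3 tissues (NR1H4, NR4A1 and NR5A1), 4 genes with 4 tissues (PPARA, NR1I2, NR5A2 and ESRRB) and 4 genes with 5 tissues (PPARG, ESR2, ESRRG and NR2F1). The bars by number of tissues show the members beside all PCGs.

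**Figure D2:**
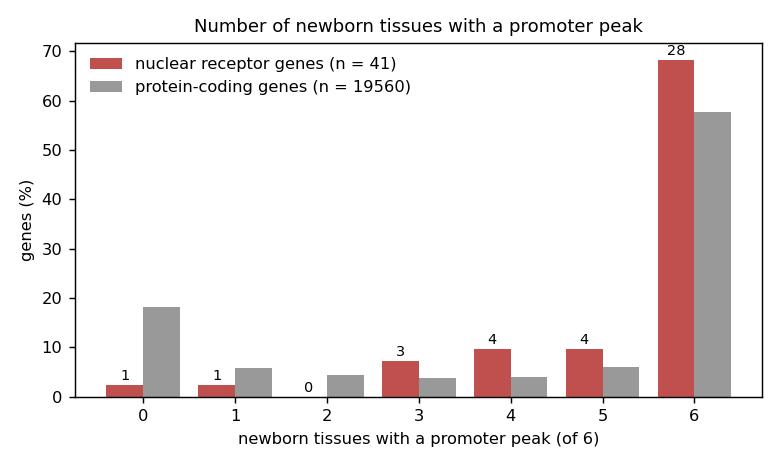
Percent of genes (vertical axis) by the number of newborn tissues with a promoter peak (horizontal axis), for the 41 nuclear receptor genes (red, count above each bar) and the 19560 PCGs (grey). 1 of the 41 genes stands at 0 tissues, against 18.2% of PCGs, and 28 stand at 6.

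Members had more annotated starts than other genes, with a median of 3 against 1 over PCGs, and a gene with more starts has more promoters in which a peak can fall. Among genes with 1 start, 3 of 6 members were called in all 6 tissues, against 43.7% of PCGs. With 2 to 4 starts the counts were 18 of 24 members and 69.5% of PCGs, and with 5 or more they were 7 of 11 members and 82.3% of PCGs. The share of members called in all 6 tissues was therefore above that of PCGs in the first classes and below it in the last. Base composition went with breadth in the same way in both sets. Over 500 bases on each side of the start richest in CpG, the ratio of observed to expected CpG had a median of 0.82 in the 28 members called everywhere and 0.79 in PCGs of that class, and of 0.56 and 0.46 in the class of 1 to 5 tissues. The lowest ratios among members were those of NR2E3 (0.16), NR1I3 (0.18) and NR1I2 (0.26), and the highest were those of RXRA and NR2C2 (1.05 each).

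The receptors of bile acids, oxysterols and xenobiotics were grouped with NR5A2 and NR0B2. All 7 genes of this group had a promoter peak at each of the 3 liver ages (67.6% of PCGs). Of the 7, 3 had one in muscle (61.5% of PCGs) and 3 in spleen (68.9%). NR1I3 encodes the constitutive androstane receptor, a xenobiotic sensor of hepatocytes. Its promoter peak, at chr4:89226243-89227340 in newborn liver, covers the 5′ end of the gene (chr4:89226314-89231781, plus strand) and lies in no promoter of another gene. The −log10 p was 177 in replicate 1 and 43.1 in replicate 2 at day 0, 50.3 and 71.2 at day 28, and 266 and 233 at day 180. These values put the peak at percentiles 88.9 and 92.5 at day 0, 95.6 and 94.6 at day 28, and 97.4 and 95.9 at day 180, so the replicates of the older ages lay above both newborn replicates. No other newborn tissue had a promoter peak there. The alternatives tried only remove calls, so they could not have added one. The adjoining gene TOMM40L, whose record overlaps that of NR1I3, had a promoter peak in all 8 lists.

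NR5A2 encodes liver receptor homolog 1, which activates bile acid synthesis genes. It has separate promoters 11268 bp apart. The upstream promoter was called in liver alone, with −log10 p values of 215 and 33.7 at day 0, 16.4 and 24.7 at day 28, and 242 and 123 at day 180. The downstream promoter was called in heart, kidney, lung and liver, with 6.09 and 6.06 in heart and 7.02 and 6.64 in lung at an IDR of 0.686 and 0.745. In kidney it had 10.6 and 10.8 at an IDR of 0.0479. The upstream peak ranked at percentiles 92.0 and 89.2 in newborn liver, and the downstream peak at 28.8 and 22.4 in heart, so the weak calls outside liver belonged to the downstream promoter.

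NR1H4 encodes the farnesoid X receptor, the bile acid sensor. Its annotated 5′ end had no peak in any list, and the calls came from promoters 49477 bp and 80424 bp further into the gene. The strongest promoter peak lay 49477 bp into the gene in newborn liver, with −log10 p values of 158 and 17.6, and in lung, with 11.9 and 29.2. In kidney it lay 80424 bp into the gene, with 9.63 and 19.9, and kidney had 7.36 and 20.9 at the promoter of liver and lung. The strongest liver peak ranked at percentiles 86.9 and 75.6 at day 0, 71.0 and 73.0 at day 28, and 91.2 and 88.4 at day 180. Adult liver was thus the highest of the ages in both replicates. NR1I2 encodes the pregnane X receptor, another xenobiotic sensor. Its promoter peak had 221 and 50.0 in newborn liver and 12.7 and 49.9 in kidney, whereas lung (5.59 and 8.03) and heart (4.32 and 9.05) carried weak calls with an IDR of 0.745 and 0.686. Muscle and spleen had none for either gene, and heart had none for NR1H4.

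NR0B2 encodes the small heterodimer partner, a repressor that farnesoid X receptor induces, and NR1H2 and NR1H3 the liver X receptors for oxysterols. All 3 had a promoter peak in every list. NR0B2 ranked highest in newborn liver in both replicates, at percentiles 93.9 and 94.4, against 25.6 and 11.3 in lung. NR1H3 ranked at percentile 87.5 or above in every replicate of every list, and in 6 of the 8 lists its strongest peak also overlapped a promoter of ACP2.

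The sequences under the strongest promoter peaks of the liver-linked genes are shown because they are the accessible bases behind these calls. Each is a stretch of 151 bases inside the peak, free of annotated exons and as near as possible to the summit, read in the direction of transcription from the RefSeq Sscrofa11.1 assembly. Capitals mark AGGTCA, the hexamer that many nuclear receptors bind, or TGACCT, the same hexamer on the other strand. PPARA, NR5A2 and NR0B2 contain the summit, whereas the stretches of NR1I2, NR1H4 and NR1I3 begin 34, 54 and 243 bases from it, because their summits lie in exons. The hexamer occurs at bases 114 to 119 of PPARA and 109 to 114 of NR1I3, and the other 4 stretches do not hold it. Within 100 bases of the summit the picture differs. Over all lists the hexamer was there in 4 of 9 promoter peaks of PPARA, 0 of 3 of NR1I3 and 5 of 11 of NR1I2. For NR5A2 it was 2 of 22, for NR0B2 1 of 12 and for NR1H4 0 of 9.
NR1I3, chr4:89226918-89227068, + strand: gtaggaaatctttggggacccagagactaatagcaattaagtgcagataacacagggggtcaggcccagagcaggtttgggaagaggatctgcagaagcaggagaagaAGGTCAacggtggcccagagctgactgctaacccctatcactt
NR5A2, chr10:22727627-22727777, + strand: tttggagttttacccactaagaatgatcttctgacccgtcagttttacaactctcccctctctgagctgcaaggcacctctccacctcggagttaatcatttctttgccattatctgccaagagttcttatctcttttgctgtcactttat
NR1H4, chr5:83683192-83683342, - strand: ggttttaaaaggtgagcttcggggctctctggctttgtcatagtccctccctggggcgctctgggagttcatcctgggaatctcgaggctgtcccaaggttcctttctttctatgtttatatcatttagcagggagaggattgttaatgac
NR1I2, chr13:140406130-140406280, - strand: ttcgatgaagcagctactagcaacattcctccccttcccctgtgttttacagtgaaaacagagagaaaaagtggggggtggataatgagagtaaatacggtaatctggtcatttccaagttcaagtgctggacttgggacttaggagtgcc
NR0B2, chr6:84225458-84225608, + strand: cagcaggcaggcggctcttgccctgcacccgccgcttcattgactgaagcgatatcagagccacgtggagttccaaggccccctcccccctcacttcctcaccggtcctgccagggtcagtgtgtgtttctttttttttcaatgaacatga
PPARA, chr5:3322986-3323136, - strand: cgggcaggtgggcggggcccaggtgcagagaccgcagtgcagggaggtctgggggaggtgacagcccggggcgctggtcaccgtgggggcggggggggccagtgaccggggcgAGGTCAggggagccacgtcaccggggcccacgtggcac

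PPARA, of the fatty acid receptors, encodes the receptor that drives fatty acid oxidation in liver. Its liver peak lay upstream of the annotated start, with the summit at -1970 bp in newborn liver and -2009 bp in adult liver, and the RefSeq model is short at 18337 bp with 1 start. The −log10 p was 174 and 23.6 at day 0, 19.1 and 28.5 at day 28, and 121 and 81.9 at day 180. Heart (5.19 and 6.34), kidney (4.67 and 5.07) and spleen (14.7 and 6.78) had calls with an IDR of 0.463 or higher, of which those of heart and kidney lay nearer to the start and did not overlap the liver peak. Lung and muscle had none. Of the newborn tissues PPARA thus ranked highest in liver, at percentiles 88.6 and 82.6. PPARD, expressed in many tissues, had a promoter peak in all 8 lists and ranked highest in spleen, at percentiles 96.8 and 97.3. PPARG, the receptor of fat cell differentiation, was called in all newborn tissues but muscle, and its highest mean rank was in kidney (percentiles 77.6 and 85.7).

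The RXR genes, whose products are partners of many other members, were called in every list. RXRA has 9 separate promoters, and the promoter at the 5′ end was called in kidney, in newborn liver (174 and 39.9) and at both later liver ages, but in no other newborn tissue. The promoter 53357 bp downstream was called in all 8 lists and was strongest in muscle, at percentiles 91.4 and 91.6. RXRB ranked at percentile 85.7 or above in every library, and its peak also covers a promoter of SLC39A7. RXRG has 4 separate promoters. The promoter 170561 bp into the gene had values of 128 and 33.5 in newborn liver and 95.4 and 155 at day 28, where it stood at percentiles 99.2 and 99.3. At day 180 it had 227 and 295, in heart 20.3 and 48.7, and in muscle 37.4 and 40.9, and it was not called in kidney, lung or spleen. The bases under its peak in suckling liver are shown because this was the top-ranked member promoter at that age, and they contain the summit and 1 hexamer, at bases 52 to 57, in capitals.
RXRG, chr4:85328723-85328873, + strand: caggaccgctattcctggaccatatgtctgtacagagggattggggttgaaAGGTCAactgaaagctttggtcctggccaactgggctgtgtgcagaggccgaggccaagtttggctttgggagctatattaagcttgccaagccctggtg

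The genes of the receptors of thyroid hormone (THRA and THRB), retinoic acid (RARA, RARB and RARG) and vitamin D (VDR) all had a promoter peak in all 8 lists. THRB, the thyroid hormone receptor isoform gene that prevails in liver, had its strongest newborn-liver peak in a promoter 41556 bp downstream of the gene's 5′ end. That promoter had values of 333 and 63.0 in newborn liver, 39.4 and 54.2 at day 28 and 194 and 101 at day 180, and 4.90 and 5.32 in heart and 4.11 and 10.3 in kidney, and it was called in no other newborn tissue. The promoter at the 5′ end was called everywhere. RARG had the highest ranks of the retinoic acid receptor genes, in kidney, at percentiles 98.8 and 98.9. RARB had its lowest mean rank in kidney, at 27.7 and 16.5, and VDR in lung, at 17.6 and 78.7, where the replicates lay far apart.

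Of the steroid receptor genes, NR3C2, which encodes the mineralocorticoid receptor that retains sodium in the kidney, had the strongest promoter peak of the members in kidney, newborn liver, lung and adult liver by mean percentile. The −log10 p was 87.0 and 142 in kidney, 471 and 122 in newborn liver, and 74.3 and 232 in lung, at the same place in the gene. Heart (7.91 and 11.6) and muscle (5.68 and 7.14) had no peak there, and their values are of neighbouring peaks that do not overlap it. Its percentiles were 99.2 and 99.5 in kidney, 99.3 and 99.4 in newborn liver and 98.1 and 98.1 in lung. In every list the strongest peak also overlapped a promoter of the uncharacterised gene LOC110261980. NR3C1, the glucocorticoid receptor gene, and ESR1, the estrogen receptor α gene, had a promoter peak in all 8 lists. Of the newborn tissues ESR1 ranked highest in kidney, at 80.7 and 83.2, and its annotated 5′ end and a promoter 36764 bp inside the gene had no peak in any list.

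The estrogen-related receptors resemble estrogen receptors but bind no estrogen, and they act on mitochondrial and oxidative genes. ESRRA was called in all lists, at percentile 92.0 or above in every library except those of spleen (68.3 and 64.4). ESRRG was called in 5 newborn tissues and in no liver list. Its strongest peak was in muscle, in a promoter 329574 bp into the gene, at −log10 p 58.1 and 66.7 and percentiles 91.7 and 91.7. In kidney the strongest lay 93852 bp into the gene, with 23.9 and 42.0, and in heart it lay 50490 bp into the gene, with 20.2 and 12.4. Lung had 5.07 and 18.8 in the promoter that led in heart, with an IDR of 0.377, and 5.23 and 7.19 in another promoter 63402 bp into the gene, with an IDR of 0.745. Spleen had 28.1 and 13.8, in the same promoter as muscle. The strongest peaks of muscle, kidney and heart thus lay in different promoters of the gene.

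The gap of ESRRG in liver extended over the whole gene (chr10:6710615-7371419, minus strand). No peak was called in its 660805 bp in liver at day 0, 28 or 180, against 48 peaks in kidney, 33 in heart, 28 in muscle, 21 in lung and 9 in spleen. Of 257 PCGs of at least 500 kb, 3 had no peak in any liver list, and 2 of these had a peak in all 5 other newborn tissues. The median number of peaks in such genes was 15 in newborn liver. Within 250 kb of either side of ESRRG, the liver lists held 1, 5 and 1 peaks at day 0, 28 and 180, against 19 in kidney, 12 in lung, 8 in heart and 2 each in muscle and spleen, so few peaks were called around the gene in liver too.

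**Figure D3:**
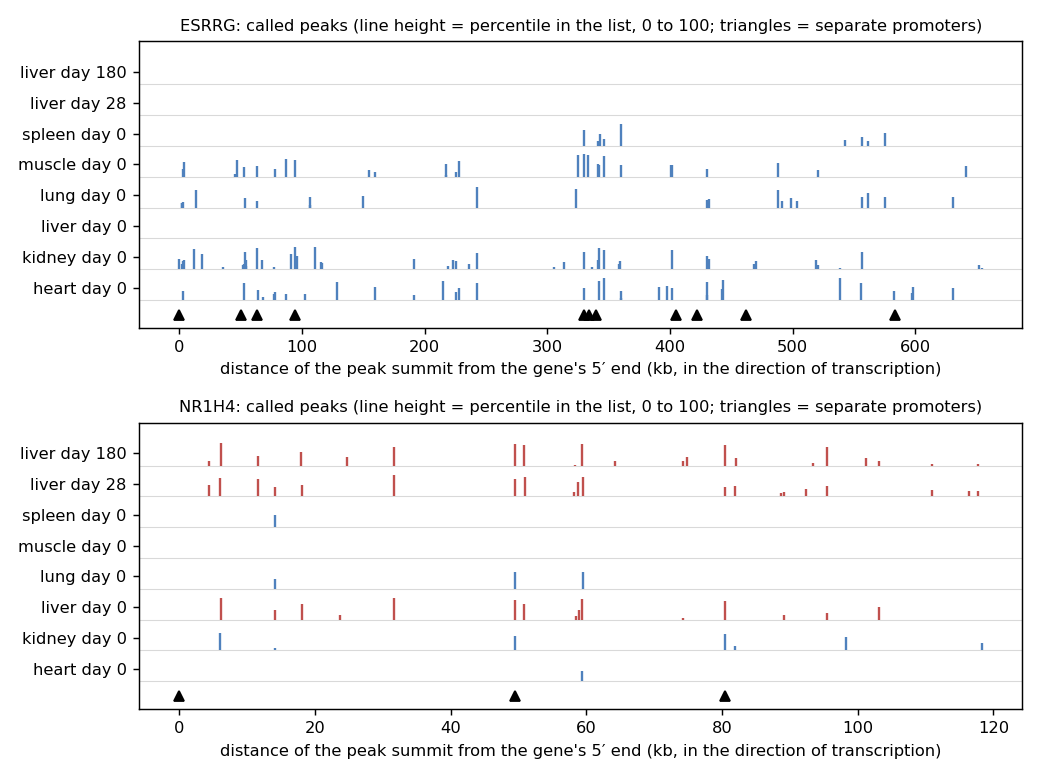
Each vertical line is a called peak at its distance in kb from the gene's 5′ end (horizontal axis), in 8 rows for the peak lists (liver in red, other tissues in blue), with line height as the mean percentile of both replicates within the list and triangles at separate promoters. ESRRG has 48 peaks in kidney and none in the 3 liver rows, whereas NR1H4 has 15, 20 and 21 peaks in liver at day 0, 28 and 180 and 7 or fewer in any other row.

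The receptors tied to the circadian clock were broadly accessible. NR1D1 and NR1D2, which encode the REV-ERB repressors, and RORA, which encodes an activator of the same target genes, were called in all 8 lists. Of the newborn tissues NR1D1 ranked highest in spleen, at percentiles 94.3 and 95.4. Of these tissues RORA and RORB ranked highest in kidney, at 90.1 and 88.4 and at 96.7 and 94.7. For RORA these values are of the promoter at the 5′ end. In the promoter 656376 bp into the gene, replicates lay far apart, at 2.5 and 94.5 in newborn liver and 90.8 and 29.0 in heart. In each of these tissues 1 replicate thus stood above the kidney values. Of the NR4A genes, rapidly induced in response to many stimuli, NR4A2 and NR4A3 had a promoter peak in every list, at percentile 86.5 or above for NR4A3 in every library. NR4A1 had only calls with an IDR of 0.478 or higher, with the summit at -1494 bp from its record in heart (16.4 and 5.52), and in newborn liver and lung.

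Among the other orphan receptors, NR2C1, NR2C2, NR2F2, NR2F6 and NR6A1 were called in all 8 lists. NR2C2 reached percentiles 99.3 and 99.0 in suckling liver and 97.8 and 97.8 in heart, with a peak that also covers a promoter of LOC106505680. NR2F1 lacked a call in heart and ranked highest in newborn liver, at 92.7 and 91.6, with the summit at -1753 bp from the start. NR5A1, which encodes steroidogenic factor 1 of the adrenal gland and gonads, had calls in newborn liver (10.6 and 4.72), lung (5.11 and 7.95) and spleen (17.8 and 6.42), with an IDR of 0.473 or higher. NR2E3 had 11 peaks inside the gene over the 8 lists, of which the highest-ranked was an intronic peak in adult liver with 85.9 and 87.8.

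Ranked by the mean percentile of both replicates, the strongest promoter peaks belonged to NR2C2, NR4A3 and RXRB in heart, to NR3C2, RARG and NR4A2 in kidney, and to NR3C2, NR4A2 and THRB in newborn liver. In lung they belonged to NR3C2, NR4A3 and NR2C1, in muscle to RXRB, ESRRA and NR2F2, and in spleen to PPARD, RXRB and NR1D1. NR4A2 had 363 and 86.3 in newborn liver and 59.9 and 96.1 in kidney. Both are of the promoter at the 5′ end of NR4A2, which had 84.5 and 10.1 in muscle, at percentiles 96.6 and 36.5. RXRG, NR3C2 and NR2C2 led in suckling liver, and NR3C2, NR2C2 and NR4A2 in adult liver. For 7 members the strongest peak also overlapped a promoter of another gene, so it cannot be assigned to the receptor alone.

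A gene was counted as leading in a tissue where both replicates of that tissue ranked its strongest promoter peak above every replicate of the other 5 newborn tissues, with an uncalled promoter placed lowest. Newborn liver led for 6 members (4.22% of PCGs), namely PPARA, THRB, NR1I3, NR0B2, NR5A2 and NR2F1. Kidney led for 5 (15.2%), namely RARG, RORA, RORB, ESR1 and ESR2. For RORA this rests on the promoter at the 5′ end, as given above. For THRB the lead of liver rests on the promoter 41556 bp downstream. At the 5′ end of THRB, newborn liver stood at percentiles 76.6 and 85.7, below lung (94.7 and 92.5) and kidney (86.7 and 92.2). Spleen led for PPARD and NR1D1, 2 members (6.29%), lung for ESRRA alone (2.61%), muscle for ESRRG alone (1.13%), and heart for 0 (1.27%). As a share of 41, liver led for 14.6% of members, above the PCGs, and kidney for 12.2%, which is near the PCGs. These differences were not tested, and 26 members led in no tissue. Over all members with a promoter peak, the median percentile was 90.1 in newborn liver against 84.7 over PCGs, and 72.7 in heart against 82.8. Kidney (87.8 against 89.0), lung (76.7 against 85.6), muscle (70.8 against 77.7) and spleen (82.6 against 86.9) lay below the PCGs as well.

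Counting each group of overlapping promoters of a gene as 1 separate promoter gave other shares. The 41 genes have 98 separate promoters, of which 31 (31.6%) were called in all 6 newborn tissues, 48 (49.0%) in 1 to 5 and 19 (19.4%) in none. Over the 25154 separate promoters of PCGs the shares were 46.9%, 28.8% and 24.2%. By gene the share called everywhere was 28 of 41 members against 57.7% of PCGs, and by promoter it was 31.6% against 46.9%, a difference that was not tested. With the 5′ end alone, 20 of 41 members were called everywhere, against 53.1% of PCGs. Of the 25 members with more than 1 separate promoter, 23 had promoters that differed in the lists that called them, as did 89.9% of the 3435 PCGs of this kind. Newborn liver alone called 3 separate promoters, those of NR1I3, the upstream one of NR5A2 and the one 163650 bp into NR6A1, against 2.06% of separate promoters over PCGs.

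Inside the gene bodies and promoters, 2805 peaks were called over the 8 lists, from 252 in muscle to 458 in suckling liver, an order that goes with the length of the lists. Among equal numbers of top peaks muscle had the most, with 252, and suckling liver had 198. Per 100 kb, members had 8.78 peaks in kidney against 7.14 over PCGs, 7.88 against 6.77 in newborn liver, and 4.92 against 3.48 in muscle. In spleen they had 4.94 against 4.84. The 5 genes with the most peaks were RORA with 442 in 763804 bp, THRB with 221 in 459872 bp, NR3C2 with 158 in 365879 bp, ESR1 with 152 in 387875 bp and RARB with 146 in 171302 bp. These are long genes, and the median member is 41869 bp long, against 20654 bp over PCGs. ESR1 ranged from 6 peaks in heart and in lung to 27 in newborn liver and 34 in suckling liver.

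Peaks that overlap no peak of the other 5 newborn tissues are called tissue-only here. They were found in 19 members in heart (18.5% of PCGs), 23 in kidney (41.1%), 24 in liver (40.2%), 15 in lung (24.7%), 16 in muscle (19.0%) and 19 in spleen (28.2%), and in 37 members in any of the 6 (68.7%). As a share of 41 these counts stand above the PCGs, and members are also longer. As a share of the peaks in members, tissue-only peaks made up 21.0% in heart (15.1% over PCGs), 24.2% in muscle (19.0%), 31.3% in kidney (30.3%), 27.5% in newborn liver (26.0%), 21.2% in lung (18.7%) and 22.1% in spleen (21.2%). On this scale kidney, liver and spleen were within 2 percentage points of the PCGs. The share was not matched for gene length. Tissue-only peaks of members lay mostly outside promoters, with 4 of 61 inside them in heart and 6 of 141 in kidney.

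RORA had the most tissue-only peaks, with 105, followed by ESRRG with 57, THRB with 34, NR3C2 with 33 and NR3C1 with 25. In RORA 28 were of newborn liver, 27 of kidney and 20 of muscle, and the highest-ranked by the mean of both replicates was an intronic kidney peak at chr1:110972898-110973710 with −log10 p 26.4 and 50.8. ESRRG had 25 in kidney, 12 in heart and 10 in muscle. Its highest-ranked were an intronic kidney peak at chr10:7260555-7261416 with 28.6 and 41.2, and an intronic muscle peak at chr10:7045889-7046313 with 76.7 and 44.4. The highest-ranked tissue-only peak of THRB was intronic and of spleen, at chr13:10941273-10941919, with 33.4 and 31.1, and that of NR3C2 intronic and of kidney, at chr8:80588528-80589094, with 30.5 and 32.3. In NR3C1 it was an intronic kidney peak at chr2:144937204-144937985 with 16.9 and 22.3.

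Other members had tissue-only peaks mostly of 1 tissue. NR6A1, the germ cell nuclear factor gene, had 15 of its 21 in newborn liver, NR5A2 had 11 of 16 and NR1H4 had 10 of 13 there. ESRRB had 15 of 20 in kidney, including a promoter peak at chr7:99536072-99537226 with 24.3 and 30.8 at an IDR of 0.0039, the lowest value that the lists record. NR5A1 had 5 of 6 in spleen.

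**Figure D4:**
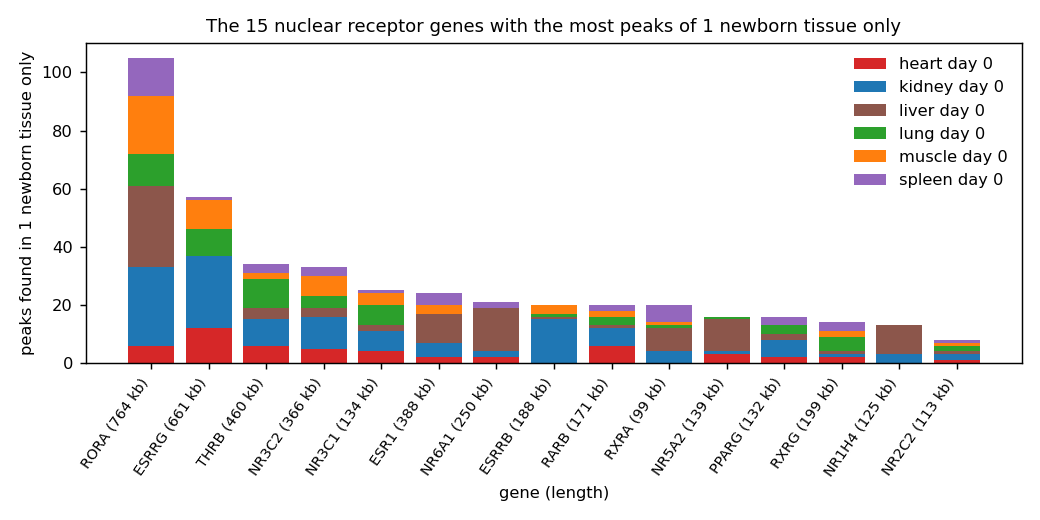
Stacked bars give the number of peaks called in 1 newborn tissue only (vertical axis, colours by tissue) in the 15 nuclear receptor genes that have most of them, with gene length beside each name. RORA (105) and ESRRG (57) lead, and the bars of NR6A1, NR5A2 and NR1H4 are mostly newborn liver, that of ESRRB mostly kidney.

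Across the liver ages, 33 of the 41 members had a promoter peak at day 0, 28 and 180 (67.6% of PCGs), 6 differed among the ages (10.2%), and ESRRG and NR2E3 had none at any age. The counts with a promoter peak were 39 at day 0, 37 at day 28 (75.0% of PCGs) and 33 at day 180 (69.8%). This order did not hold under every alternative. An IDR of 0.05 or lower gave 29, 31 and 33 members, where the share of PCGs rose as well (44.1%, 55.4% and 56.9%). Equal numbers of top peaks gave 35, 33 and 33 members (57.8%, 59.2% and 58.2% of PCGs). Ranks by replicate 1 alone gave 32, 34 and 33 members (61%, 61.2% and 58.4% of PCGs). All 6 that differed were called at day 0 and not at day 180. A peak at day 0 or 28 but not at day 180 was found in 8.03% of PCGs. No member had a promoter peak at day 180 alone, against 0.767% of PCGs. In bulk tissue, fewer cells with an open site and a less open site per cell cannot be told apart.

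RORB, ESR2, PPARG and ESRRB were called at day 0 and day 28, and NR5A1 and NR4A1 at day 0 only. RORB, a paralog of RORA known from brain and retina, had −log10 p 49.1 and 20.5 at day 0 and 13.5 and 23.3 at day 28, which is percentiles 65.0 and 79.5 and then 72.6 and 74.1. At day 180 no peak was called anywhere in its 202835 bp. ESR2, the estrogen receptor β gene, had 14.3 and 8.63 at day 0 and 12.7 and 5.96 at day 28, in peaks that do not overlap, and it also had no peak anywhere in the gene at day 180. The peaks of ESR2 stood at percentiles 36.9 and 49.0 at day 0 and 70.6 and 24.3 at day 28, below RORB in both replicates at each age.

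PPARG had 4.33 and 14.4 at day 0, at percentiles 6.6 and 69.7, and 15.8 and 23.1 at day 28, at 76.7 and 73.9. Replicates at day 0 were thus far apart, and both day 28 replicates lay above them. ESRRB had 16.7 and 13.6 at day 0 and 4.06 and 5.0 at day 28, where it stood at percentiles 9.6 and 16.4, below both newborn replicates (40.5 and 67.8), which are of a different promoter. NR5A1 (10.6 and 4.72) and NR4A1 (9.04 and 5.89) stood at percentile 30.4 or lower at day 0. The newborn-liver peaks of all 6 genes had an IDR between 0.0588 and 0.607. At an IDR of 0.05 or lower none of them would be called in newborn liver, and RORB and PPARG would be called at day 28 alone.

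Sequences are shown for PPARG and ESRRB, whose strongest promoter peak, that of kidney, lies outside exons at its summit. The PPARG stretch lies inside the peaks called in newborn and suckling liver as well, whereas the ESRRB peak was called in kidney alone and the liver peaks of this gene lay elsewhere. Both contain the summit, and neither holds the hexamer, so no base is in capitals.
PPARG, chr13:68301894-68302044, + strand: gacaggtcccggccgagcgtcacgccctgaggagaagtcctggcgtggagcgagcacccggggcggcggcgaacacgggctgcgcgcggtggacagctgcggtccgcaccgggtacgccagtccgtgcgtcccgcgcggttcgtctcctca
ESRRB, chr7:99536597-99536747, + strand: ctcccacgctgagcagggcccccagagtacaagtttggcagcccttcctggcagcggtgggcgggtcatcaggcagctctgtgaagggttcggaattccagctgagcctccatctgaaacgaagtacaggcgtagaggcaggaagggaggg

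Markers of other cell types moved with age in the same lists. Of 8 erythroid genes, 7 had a promoter peak at day 0, 4 at day 28 and 2 at day 180, while endothelial markers stayed at 7 of 8 at each age and macrophage markers stood at 5, 6 and 5 of 8. Spleen and lymphocyte markers stood at 4, 6 and 5 of 8. The part of these cells in the liver-age differences was not tested.

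Ranks of the promoters called at both day 0 and day 180 moved in both directions. In 6 members both adult replicates ranked the strongest promoter peak above both newborn replicates (8.53% of PCGs), namely RXRG, PPARD, NR1H4, NR1I3, RORA and NR1D1. In 13 both ranked it below (18.3%), among them RXRA, THRA, THRB, VDR, NR0B2, ESR1, NR3C1, NR3C2 and NR2F1. For RORA the strongest peak lay in different promoters at these ages, at the 5′ end at day 0 (percentiles 42.6 and 82.0) and 656376 bp into the gene at day 180 (95.3 and 94.4). At the latter promoter alone the newborn replicates stood at 2.5 and 94.5, far apart, so they were not both below the adult ones. NR2F1 stood at percentiles 92.7 and 91.6 at day 0, 48.9 and 45.5 at day 28, and 79.2 and 74.8 at day 180, where the peak of day 28 lay nearer to the start than the others and did not overlap them. Some of these shifts are small, such as that of NR3C2 from 99.3 and 99.4 to 98.9 and 98.7, and VDR moved from 77.4 and 85.4 to 73.0 and 69.9. In PPARD the newborn replicates stood far apart, at 8.2 and 92.9, against 95.8 and 93.9 in adult liver. The strongest THRA peaks of day 0 and day 180 did not overlap.

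**Figure D5:**
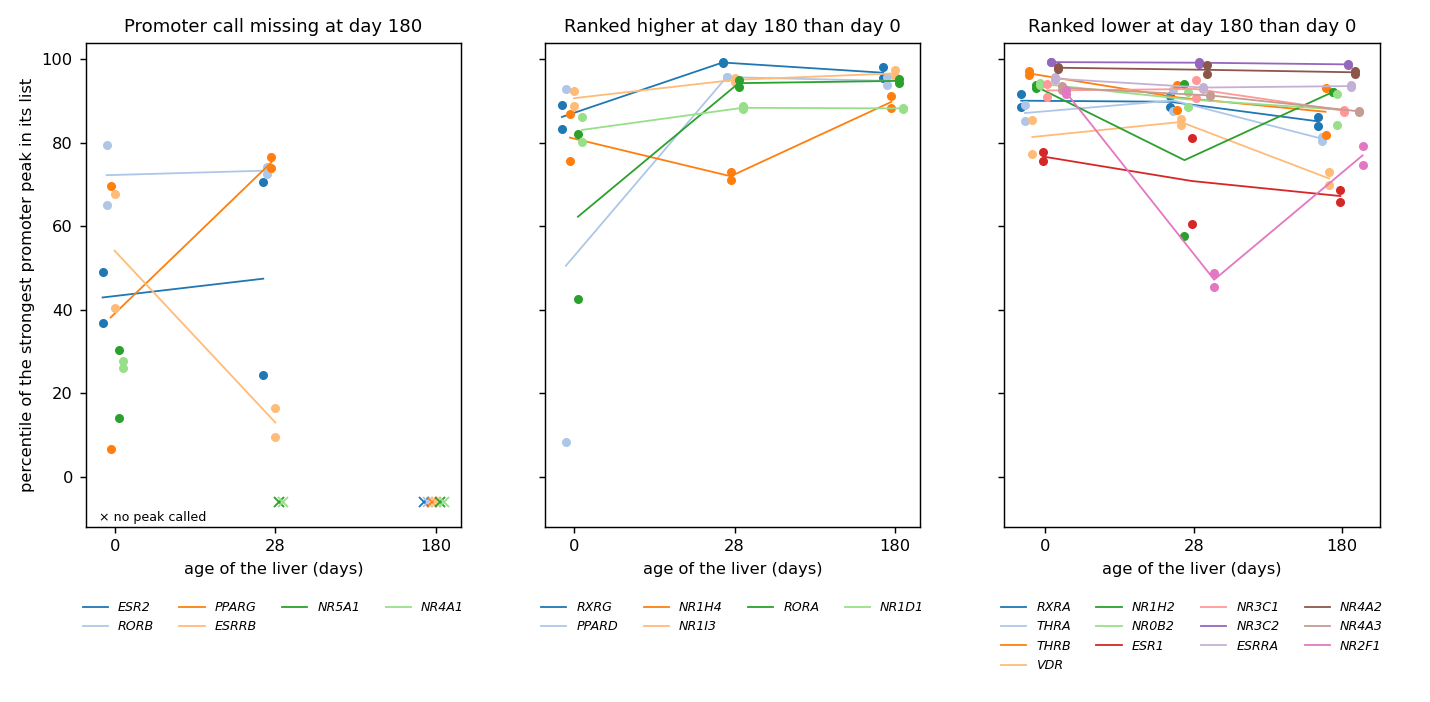
Percentile of the strongest promoter peak within its list (vertical axis) at 0, 28 and 180 days of age (horizontal axis, evenly spaced and not to scale), with a point for each replicate, a line through their means and a cross where no peak was called. The left panel shows the 6 genes without a call at day 180, the middle panel the 6 whose adult replicates both lie above both newborn replicates, and the right panel the 13 whose adult replicates both lie below.

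Peaks of a single liver age made up 64 of the members' peaks at day 0 (15.8%, against 16.4% over PCGs), 96 at day 28 (21.0% against 24.2%) and 88 at day 180 (21.5% against 18.3%). Adult liver was thus the age at which members exceeded the PCGs. THRB contributed 12 of the adult peaks, NR6A1 10, RXRA 9 and RARB 8, and NR5A2 and NR3C1 contributed 7 each. ESRRB contributed 8 of the newborn peaks, and RORA 15.

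Genes that work with the receptors had promoter peaks as follows. The shares over all PCGs were 68.0% in heart, 75.2% in kidney, 70.6% in lung, 61.5% in muscle and 68.9% in spleen. In liver they were 73.7%, 75.0% and 69.8% at day 0, 28 and 180. As a share of their lists, the ligand genes and the target genes were below PCGs in heart, muscle and spleen and above them in kidney and newborn liver. These differences were not tested. Of 15 coregulator genes, which encode coactivators and corepressors that receptors recruit, 15 were called in 6 of the lists and 14 in kidney and in muscle. Of 19 matched genes for supply and breakdown of ligands, 17 were called in kidney, 16 in newborn liver, 14 in lung, 11 in heart, 9 in spleen and 8 in muscle. Liver had 14 of them at day 28 and at day 180. Of 27 matched liver and metabolic target genes of receptors, all were called in newborn and suckling liver and 26 in adult liver, against 23 in kidney, 18 in lung, 17 in heart, 16 in spleen and 15 in muscle. FGF19, the bile acid-induced hormone gene, was the target whose call differed among liver ages.

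The hexamer AGGTCA was searched on both strands within 100 bases of each side of the summit. Over the 8 lists it was found in 9.57% of member promoter peaks on average and in 9.06% of the promoter peaks of PCGs. The member share was highest in adult liver, 15.8% (16 of 101 peaks, Wilson 95% interval 9.99% to 24.2%) against 10.7% over PCGs, and in newborn liver, 15.2% (15 of 99, 9.40% to 23.5%) against 10.6%. It was lowest in muscle, 4.69% (3 of 64, 1.61% to 12.9%) against 8.43%. In every list the share over PCGs lay within the interval of the members, which covers counting error only, and the same promoters recur in several lists. Within 50 bases of the summit the share over PCGs lay below the interval in newborn liver (11 of 99 peaks, 6.32% to 18.8%, against 5.83%) and adult liver (12 of 101, 6.93% to 19.6%, against 6.16%). It lay inside the interval in the other 6 lists. Suckling liver had 5.10% of member peaks against 5.94% over PCGs there, and 10.2% against 10.5% within 100 bases. Several peaks of a list can come from the same gene, which the interval does not allow for, and no test was made. The members with the most such peaks were RXRA (14 of 83 peaks), NR3C2 (8 of 19) and THRB (8 of 28), followed by RXRG (5 of 22) and NR1I2 (5 of 11).

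Paired hexamers, each AGGTCA or GGGTCA, were searched as direct repeats with 0 to 5 bases between them, such as AGGTCANAGGTCA, as an inverted repeat, AGGTCANTGACCT, and as an everted repeat, TGACCTNNNNNNAGGTCA. The repeats were found in 1 of 684 member promoter peaks, a direct repeat with a spacing of 1 base at ESRRA, and in 349 of 136093 promoter peaks of PCGs. The hexamer preceded by AA, AAAGGTCA, was found in 16 member peaks, at RXRG, THRB, NR2F6, ESRRA, NR2C1 and NR5A2. On average it was found in 2.21% of the member peaks of a list and in 0.671% over PCGs. The 16 come from 6 genes and recur across lists. TNAGGTCA was found in 7 member peaks, on average in 0.875% of the member peaks of a list and in 2.07% over PCGs. A match in this window is a description of the letters and not evidence of binding.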

How the data were processed

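Processed peak lists of 8 groups were used, each from 2 ATAC-seq libraries. According to the study's methods, the authors aligned reads to Sscrofa11.1 with Bowtie2, used SAMtools (1.3.1, per the labels) to discard duplicates and reads that were mitochondrial or poorly mapped, called peaks in each library with MACS2 and merged replicates with the IDR tool at default settings. The deposited lists give the authors' −log10 p of each replicate, the smaller of the replicate values, and a score that is the scaled IDR (540 stands for an IDR of 0.05, 1000 is the cap). The lists were not limited to an IDR of 0.05, so weak peaks are included. They hold no counts, so depth is unknown from them.

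A peak was assigned to a promoter or gene by an overlap of 1 bp with the RefSeq annotation of Sscrofa11.1, with coordinates counted from 1, and no peak lay past a chromosome end. The strongest promoter peak of a gene in a list was the one with the largest smaller −log10 p. Tissue-only and age-only peaks overlap no peak of the other 5 newborn or other 2 liver lists. Overlaps and motif searches were written in Python 3.11.15 with numpy 2.4.6 and pandas 2.3.3, and were tested on simulated data. No test between groups was made, since calls exist only for merged lists. Members and gene lists were chosen with earlier results of these data known. Genes described singly were those with a promoter peak in 1 or 2 newborn tissues, with a call that differed among liver ages or with no promoter peak, the 5 with most peaks, the 5 with most tissue-only peaks and the 3 top-ranked in each tissue. Other genes that the text names were chosen after their values were seen. CYP26B1, DIO3, UGT1A1, MYH6 and PAX8 matched no gene symbol and were not used here. The alternatives were a promoter from 1 kb upstream, the 5′ end of the gene as the only start, the summit within the promoter, an IDR of 0.05 or lower, the 57126 top peaks of each list, the same ranked by either replicate alone, and for hexamers a window of 50 bases or the hexamer read backwards (ACTGGA).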

Additional observations from a re-analysis of the deposited data

How the results depend on the processing

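Counts of members with a promoter peak stayed within 1.5 times their value in each list under a promoter from 1 kb upstream, the 5′ end alone, the summit in the promoter, equal numbers of top peaks and either replicate alone. An IDR of 0.05 or lower lowered them to 16 in heart (38.9% of PCGs), 16 in lung (40.8%), 16 in muscle (37.0%) and 18 in spleen (43.0%). As a share of 41, heart, lung and spleen were then within 2 percentage points of the PCGs, and muscle was only slightly further from them. It left 6 members called in all 6 newborn tissues (16.2% of PCGs), 31 in 1 to 5 (53.1%) and 4 in none (30.8%). Equal numbers of top peaks gave 19 members in 1 to 5 tissues. The members called in no newborn tissue became 2 with a promoter from 1 kb upstream, 4 with the 5′ end alone, and 1 to 2 when peaks were ranked by a single replicate. The 2805 peaks in members became 879 at an IDR of 0.05 or lower, 1698 with equal numbers of top peaks and 1680 to 1702 by a single replicate. Members whose call differed among liver ages numbered 4 to 9 under all alternatives, from 6, while the share of PCGs rose from 10.2% to 29.7% at an IDR of 0.05 or lower (9 members), 24.6% with equal numbers of top peaks (7) and 19.9% to 20.3% by a single replicate (4 to 7). As a share of 41, members were below PCGs under these 4 alternatives, and above them otherwise. With the 5′ end alone, NR1H4 and ESRRB had no promoter peak in any list and NR5A2 had it in liver alone. Ranking by a single replicate keeps only peaks that both replicates supported, so it is not a call from 1 library. The mean hexamer share was 6.17% with 50 bases (4.82% over PCGs) and 7.10% with the hexamer read backwards (8.27%). Depth is unknown from the lists. The study reports the reads left after filtering in each library, but these were not used here, which limits every missing call. No paired analysis was possible because the results come from no test.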
